A study of Homo sapiens with 8 samples.

Results

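The genes described here encode the enzymes of glycolysis and their regulators, the carriers of glucose and lactate, part of the pentose phosphate pathway, and the hypoxia-inducible factor (HIF) system with a set of its known target genes. They come from a list of 45 gene symbols, of which 44 were found among the 19158 genes of the data. FBP1 is not analysed here. RNA was sequenced from A549, an established epithelial cell line from a human lung adenocarcinoma with a genotype labelled WT, grown in DMEM with serum. Of 8 wells, 4 were left untreated and 4 received dexamethasone, a synthetic glucocorticoid, at 1 µM for 48 h. Each well gave 1 library, numbered 1, 3, 4 and 5 in both groups, and all 8 carry the same batch label. The wells are of 1 cell line, so the p-values measure only the spread between these wells.

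Glycolysis splits glucose into pyruvate through a chain of enzymes that starts with hexokinase, and lactate dehydrogenase converts pyruvate and lactate into each other. Phosphofructokinase is a main control point of the chain, and the PFKFB enzymes make and degrade one of its activators. The pentose phosphate pathway branches off after hexokinase and yields NADPH and ribose. HIF pairs an oxygen-regulated alpha subunit with a beta subunit. When oxygen is present, prolyl hydroxylases mark the alpha subunit for degradation, so its protein is controlled largely after translation. Glycolytic enzymes and glucose carriers are among the best known HIF targets.

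Values were FPKM, fragment counts divided by transcript length and library total, a scale per length on which levels of different genes can be compared. The steps between low values corresponded to about 24850000 to 28660000 fragments per library. Untreated replicate 5 and dexamethasone replicate 5 stood apart, with 10555 and 11008 genes at 1 FPKM or more, against 11290 to 11378 in the other untreated and 11263 to 11319 in the other dexamethasone libraries. Genes of high GC content had lower log2 fold changes (Spearman rho = -0.456 over 12130 genes; genes are not independent replicates). Counts are therefore also given without both libraries numbered 5 and with the GC trend of each library removed. The treatment label was checked with FKBP5, TSC22D3 and PER1, known glucocorticoid-induced genes, and FKBP5 lay at 3.28 to 7.3 FPKM in untreated wells and 87.3 to 166 FPKM in treated wells. TSC22D3 and PER1 did not overlap between groups either. The 5 epithelial markers summed to 1910 to 3460 FPKM in untreated and 2580 to 3310 FPKM in dexamethasone libraries, mostly from KRT8 and KRT18, while EPCAM was at 0.538 ± 0.264 FPKM in untreated wells and 0.253 ± 0.101 FPKM in treated wells (SD, n = 4 each) and was not tested. Of the other 4, CDH1 was higher, at 6.8 ± 1.51 FPKM in untreated wells and 18.2 ± 1.45 FPKM in treated wells (adjusted p = 9.17e-05 by limma), KRT19 was lower, at 156 ± 30.6 FPKM in untreated wells and 54.7 ± 8.29 FPKM in treated wells (adjusted p = 0.00153 by limma), and KRT8 and KRT18 did not pass. The 4 leukocyte markers summed to 2.01 to 3.14 and 1.19 to 1.56 FPKM, nearly all from CD14, with PTPRC and CD3E at 0 in all libraries. The 5 fibroblast markers summed to 1.81 to 2.29 and 0.598 to 0.779 FPKM, with COL1A2 at 0 in all libraries, and the 3 endothelial markers to 0.0692 to 0.176 and 0 to 0.0327 FPKM. The 5 proliferation markers summed to 331 to 502 FPKM in untreated and 189 to 232 FPKM in dexamethasone libraries, and 3 of them, CCNB1, MCM2 and PCNA, were lower past the threshold. The part of these differences in the results was not tested.

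Some genes of the pathway passed the test after dexamethasone, in both directions. Most of the abundant enzymes did not pass, and neither did most of all genes tested. NDRG1, BNIP3L, HIF1A, SLC16A3, HK1, LDHB, P4HA1 and CA9 rose. ENO2, PFKFB3, SLC2A3, CA12 and PFKFB4 fell. In all, 43 of the 44 genes reached 0.5 FPKM in at least 4 libraries and were tested, and HK2 did not. Of the 43, 13 (30.2%) had an adjusted p under 0.05 by limma on log2(FPKM + 1), with Benjamini-Hochberg adjustment over all 12161 genes tested, 8 higher and 5 lower. Of all genes tested, 26.8% passed, 12.6% higher and 14.2% lower, so the share among the 43 genes was close to the background. The groups did not overlap in 19 of the 43 genes, and in 31.5% of all genes tested. The median log2 fold change was -0.0037 over the 43 genes and 0.0105 over all genes, with 21 genes above 0 and 22 below. Fold changes are on the log2(FPKM + 1) scale after scaling between libraries, and understate the change of low genes. In whole wells, fewer cells that express a gene and less RNA per cell cannot be told apart.

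**Figure D1:**
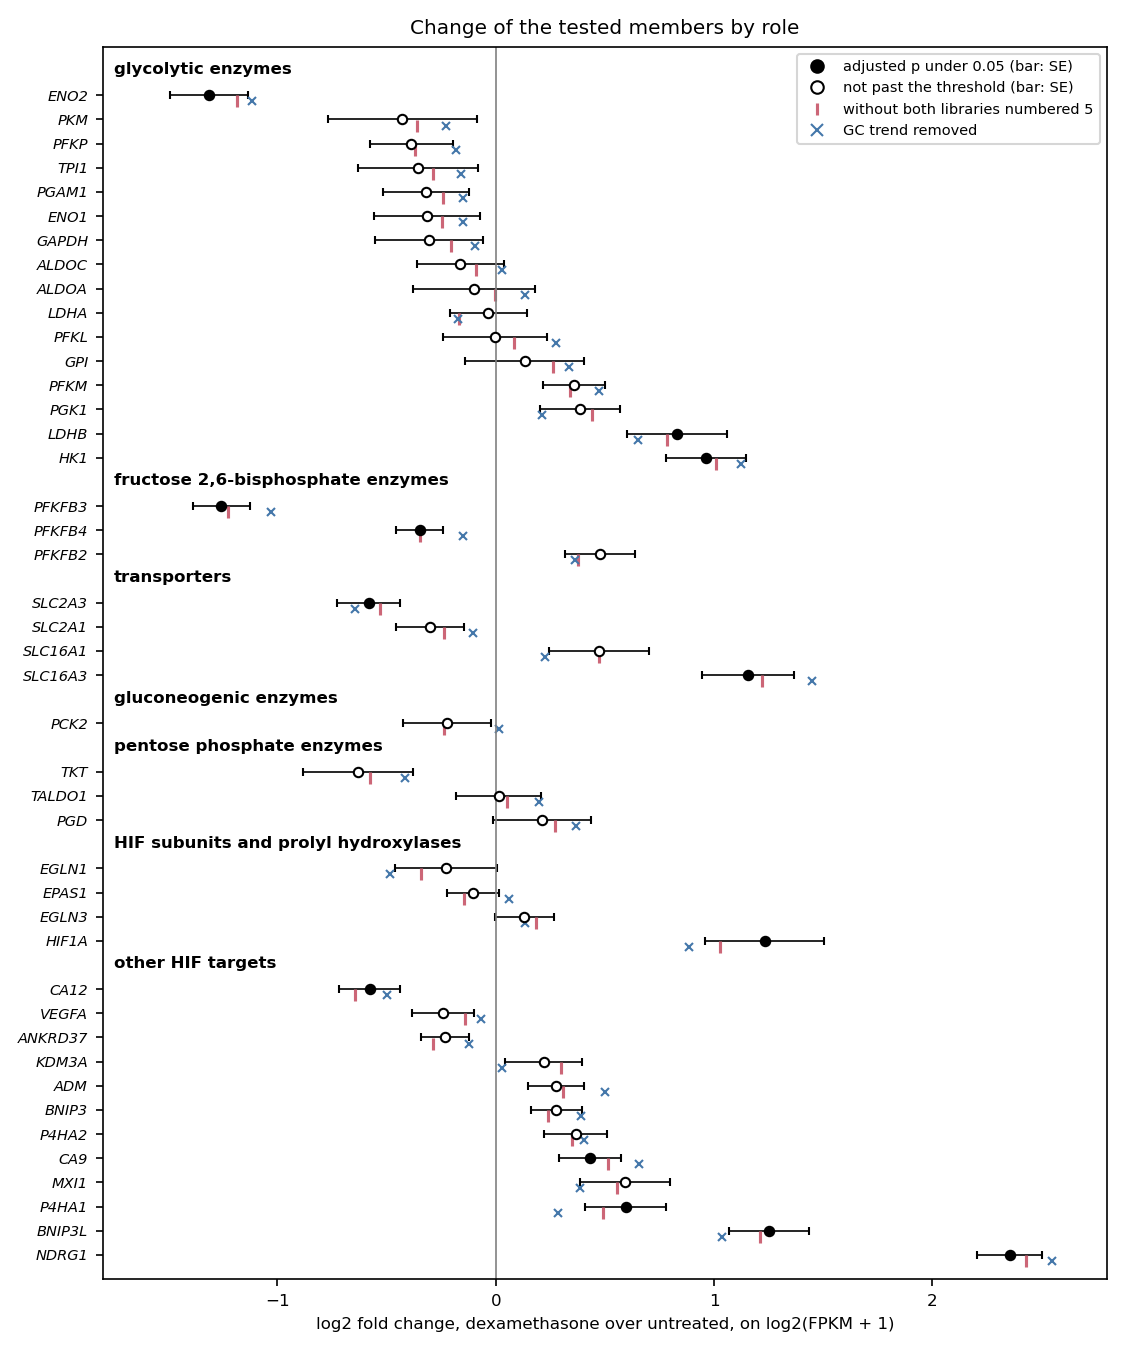
Log2 fold change of dexamethasone over untreated (x axis, log2(FPKM + 1) scale) for the 43 tested genes by role, with SE bars; filled circles have a limma adjusted p under 0.05, red ticks are values without both libraries numbered 5 and blue crosses values with the GC trend removed. NDRG1 lies farthest to the right at 2.35 and ENO2 farthest to the left at -1.31.

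The number of genes that passed depended on the libraries used. Without both libraries numbered 5, 24 of 43 passed, 14 higher and 10 lower, where 45.2% of all genes did, 22.6% in each direction, and all 13 genes were among the 24. With the GC trend removed, 19 passed, 13 higher and 6 lower, where 37.4% of all genes did, 18.7% in each direction, and PFKFB4 was lost from the 13. With the replicate number as a block in the fit, 25 passed, 14 higher and 11 lower. Of all genes 47.2% did, 23.9% higher and 23.3% lower, and all 13 genes were among the 25. Without dexamethasone replicate 1, 8 passed, 5 higher and 3 lower, against 19.3%, 8.86% and 10.4% of all genes. Without dexamethasone replicate 3, 5 genes were higher, against 8.66% of all genes, and without dexamethasone replicate 4, 3 were lower, against 10.1%. HK1, ENO2, PFKFB3, SLC16A3, HIF1A, BNIP3L and NDRG1 passed in each of 19 alternatives tried. In GRCh38, as the files give positions, the genes of the strongest changes among the enzymes, carriers and HIF subunits are HK1 at chr10:69269984-69401884, ENO2 at chr12:6913745-6923698, PFKFB3 at chr10:6144934-6254644, SLC16A3 at chr17:82228397-82261129 and HIF1A at chr14:61695513-61748259, all on the plus strand and protein coding.

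Of the carriers in the plasma membrane, 4 were tested, 1 rose and 1 fell, 50% against 26.8% of all genes. SLC2A1 encodes GLUT1, the basal glucose carrier of most cultured cells. It was at 59.3, 60.5, 58.9 and 64.4 FPKM in untreated wells, in the order of replicates 1, 3, 4 and 5, and 45.3, 52.1, 48.7 and 50.9 FPKM in treated wells. The groups did not overlap, yet the log2 fold change of -0.30 (SE 0.156) did not pass (limma adjusted p = 0.178). Without both libraries numbered 5 it was -0.23 (limma adjusted p = 0.0458), and with the GC trend removed -0.10 (limma adjusted p = 0.273). SLC2A3, which encodes the high-affinity carrier GLUT3, was far less abundant, at 2.33, 3.14, 3.3 and 3.26 FPKM in untreated wells and 1.58, 1.82, 1.5 and 1.8 FPKM in treated wells. Every treated library lay below every untreated one, and the log2 fold change was -0.58 (adjusted p = 0.0155 by limma, SE 0.145). The call was lost without dexamethasone replicate 1, at -0.55 (limma adjusted p = 0.0503), and without dexamethasone replicate 4, at -0.54 (limma adjusted p = 0.0543).

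Lactate and pyruvate cross the membrane through SLC16A carriers. SLC16A3 encodes MCT4, a carrier typical of cells that export lactate. It was at 23, 21.9, 19.9 and 22.8 FPKM in untreated wells and 37.2, 69.3, 47.7 and 51.2 FPKM in treated wells. The untreated libraries lay close together, and the treated ones were spread out above them with replicate 3 highest. The log2 fold change was 1.16 (adjusted p = 0.00316 by limma, SE 0.21). SLC16A1, which encodes MCT1, was at 6.54, 16.6, 15 and 8.61 FPKM in untreated wells and 16, 16.8, 16 and 13.9 FPKM in treated wells. Untreated replicates 1 and 5 were low while replicates 3 and 4 reached the level of the treated libraries, and the log2 fold change of 0.47 (SE 0.23) did not pass (limma adjusted p = 0.156).

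Of 17 glycolytic enzymes, 16 were tested, 2 rose, 1 fell and 13 did not pass. The share that passed was 18.8%, against 26.8% of all genes. Of the 2 genes of the list for hexokinase, the entry step, HK1 was expressed, while HK2, an isoform often induced in tumours, was barely detected. HKDC1, a further hexokinase outside the list, lay near HK1 in untreated wells, at 26.5 FPKM, and fell to 12.6 FPKM in treated wells. HK1 was at 27, 22, 26.3 and 28.6 FPKM in untreated wells and 51.5, 44.2, 53.2 and 58.2 FPKM in treated wells. The groups were far apart relative to their spread, and the log2 fold change was 0.96 (adjusted p = 0.00423 by limma, SE 0.185). HK2 was at 0.204, 0.271, 0.33 and 0.28 FPKM in untreated wells and 0.0859, 0.0648, 0.0948 and 0.0543 FPKM in treated wells. These values were too low for the test and did not overlap between the groups.

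None of the following genes of the middle of the chain passed, nor did most of all genes tested. Of the 3 phosphofructokinase genes, PFKP, the platelet form, was at 248 ± 30.4 FPKM in untreated wells and 191 ± 28 FPKM in treated wells (SD, n = 4 each). PFKL, the liver form, was at 26.4 ± 5.81 FPKM in untreated wells and 26.2 ± 4.14 FPKM in treated wells, and PFKM, the muscle form, at 17.9 ± 1.54 FPKM in untreated wells and 23.2 ± 1.87 FPKM in treated wells. None of the 3 passed (limma adjusted p of 0.161, 0.993 and 0.0921). PFKM passed without both libraries numbered 5, at 0.34 (limma adjusted p = 0.0181), and with the GC trend removed, at 0.47 (limma adjusted p = 0.00247). PGK1, an ATP-yielding enzyme, was at 120 to 145 FPKM in untreated wells and 161 to 190 FPKM in treated wells. The groups did not overlap, the log2 fold change of 0.39 (SE 0.183) did not pass (limma adjusted p = 0.149), and without both libraries numbered 5 it was 0.44 (limma adjusted p = 0.00173). With the GC trend removed PGK1 was at 0.21 (limma adjusted p = 0.541), and with both done at 0.31 (limma adjusted p = 0.0101). GPI, ALDOA, ALDOC, TPI1, PGAM1, ENO1 and PKM, which encode further steps from the isomerase to pyruvate kinase, had log2 fold changes between -0.43 and 0.13, and none passed (limma adjusted p of 0.253 to 0.812). Without both libraries numbered 5, PGAM1 passed at -0.24 (limma adjusted p = 0.0257) and ENO1 at -0.24 (limma adjusted p = 0.0379). Neither passed with the GC trend removed, both at -0.15 (limma adjusted p of 0.325 and 0.493). With both changes made they were at -0.11 (limma adjusted p of 0.192 and 0.17). With the GC trend removed, ALDOA, ALDOC and PFKL changed sign, at 0.14, 0.03 and 0.28.

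GAPDH, the dehydrogenase often used as a reference gene, ranked 4 of 19158 genes by mean FPKM in untreated cells. It was at 2589, 2466, 2555 and 3526 FPKM in untreated wells and 2013, 2164, 2185 and 2617 FPKM in treated wells. Replicate 5 was the highest of each group, and the treated value there exceeded 3 of the untreated ones. The log2 fold change was -0.31 (adjusted p = 0.384 by limma, SE 0.248). GENCODE v44 names 65 pseudogenes of GAPDH, and how reads that match several places were counted is not stated.

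Of the 2 enolase genes of the list, ENO1 did not pass and ENO2, the form named for neurons, fell. ENO2 was at 22.2, 22.3, 25.1 and 26.3 FPKM in untreated wells and 9.38, 11.7, 7.24 and 8.44 FPKM in treated wells. The groups did not overlap, and the log2 fold change was -1.31 (adjusted p = 0.00061 by limma, SE 0.181). The annotated gene overlaps LRRC23 on the same strand, so reads in the shared stretch could belong to either. ENO1, the main enolase, was at 1356 ± 219 FPKM in untreated wells and 1091 ± 160 FPKM in treated wells (SD, n = 4 each), with a log2 fold change of -0.32 (limma adjusted p = 0.36). A further enolase gene outside the list, ENO3, was at 37.7 ± 3.39 FPKM in untreated wells and 22.9 ± 2.76 FPKM in treated wells. It fell too, with a log2 fold change of -0.70 (limma adjusted p = 0.0203).

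Of the 2 lactate dehydrogenase subunits, LDHB rose and LDHA did not pass. LDHA, whose subunit favours lactate formation, is a classical HIF target. It was at 709, 591, 731 and 467 FPKM in untreated wells and 558, 644, 537 and 681 FPKM in treated wells. The groups overlapped, and the log2 fold change was -0.03 (adjusted p = 0.9 by limma, SE 0.177). LDHB, whose subunit favours lactate oxidation, was at 475, 487, 544 and 230 FPKM in untreated wells and 941, 756, 811 and 510 FPKM in treated wells. Replicate 5 was the lowest of each group, and dexamethasone replicate 5 lay within the untreated range. The log2 fold change was 0.83 (adjusted p = 0.025 by limma, SE 0.23), and without both libraries numbered 5 it was 0.78 (limma adjusted p = 0.00056). The call was lost with no scaling between libraries and without untreated replicate 1 or dexamethasone replicate 1, 3 or 4, at 0.73 to 0.87 with limma adjusted p up to 0.0799.

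**Figure D2:**
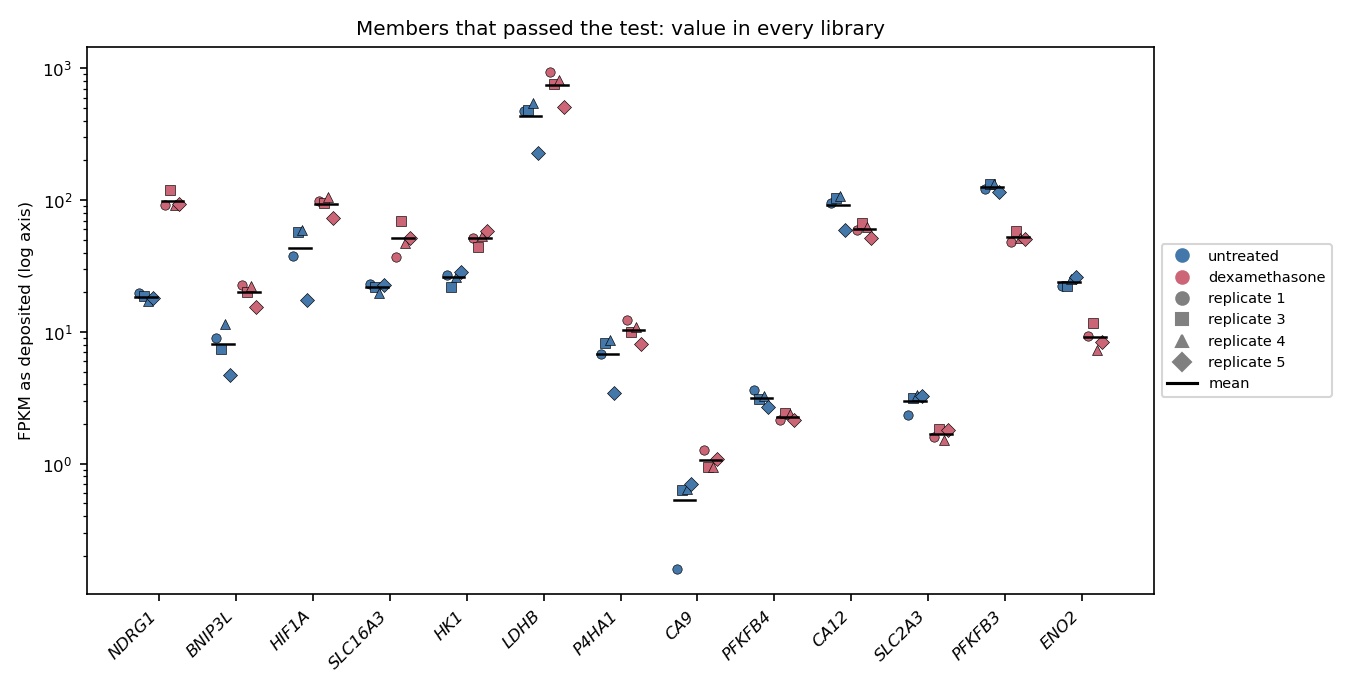
FPKM as deposited of the 13 genes with a limma adjusted p under 0.05 on a log axis in untreated and dexamethasone libraries, 1 point per library with the group mean as a line. NDRG1 lies at 17 to 19.6 FPKM in untreated wells and 91.6 to 119 FPKM in treated wells, PFKFB3 at 115 to 133 and 48.2 to 58.1 FPKM.

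The bifunctional PFKFB enzymes set the level of a sugar phosphate that activates phosphofructokinase. Of their 3 genes, 2 fell and 1 did not pass, so 66.7% passed against 26.8% of all genes. PFKFB3, whose kinase activity far exceeds its phosphatase activity, was at 122, 132, 133 and 115 FPKM in untreated wells and 48.2, 58.1, 51.6 and 50.6 FPKM in treated wells. Both groups were tight and far apart, with a log2 fold change of -1.26 (adjusted p = 0.000104 by limma, SE 0.131). PFKFB4 was at 3.64, 3.09, 3.26 and 2.68 FPKM in untreated wells and 2.15, 2.42, 2.36 and 2.16 FPKM in treated wells, a log2 fold change of -0.35 (adjusted p = 0.0388 by limma, SE 0.108). The groups did not overlap, but the call was lost in 11 of 19 alternatives. These were no scaling between libraries, all 3 fits with the GC trend removed, and the removal of any single library except untreated replicate 5. Its value was -0.15 after removal of the GC trend (limma adjusted p = 0.316). PFKFB2 was at 3.8, 4.15, 4.03 and 1.79 FPKM in untreated wells and 5.43, 4.66, 5.83 and 4.17 FPKM in treated wells. Untreated replicate 5 lay far below the rest of its group, and the log2 fold change of 0.48 did not pass (limma adjusted p = 0.0532). PFKFB2 passed without both libraries numbered 5, at 0.38 (limma adjusted p = 0.0152), and with the GC trend removed, at 0.36 (limma adjusted p = 0.0189).

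The share of an isoform within its set was computed in each library and does not depend on the scaling between libraries. Of 11 shares, 7 had no overlap between groups, each with the smallest p that 4 against 4 libraries allow. That p was 0.0286 (exact permutation test, two-sided), or 0.0449 adjusted over the 11 shares. The 7 are not separate results, since PFKP and PFKM are parts of the same total and HK2 was too low for the limma test. The adjusted p depends on how many shares reach the smallest p, and rises if such shares are left out. It was not computed without HK2 and PFKP or PFKM, so no conclusion is drawn from it for any single share. EPAS1, which encodes the alpha subunit of HIF-2, made up 62.5% ± 9.67 of HIF1A plus EPAS1 in untreated and 39.8% ± 3.25 in dexamethasone libraries (SD, n = 4 each). EPAS1 was the larger of these transcripts in every untreated library and HIF1A in every treated one. PFKFB3 made up 95% ± 0.866 of the PFKFB transcripts in untreated and 87.7% ± 1.54 in dexamethasone libraries. PFKP made up 84.8% ± 2.09 and 79.3% ± 1.95 of phosphofructokinase transcripts, and PFKM 6.19% ± 1.04 and 9.76% ± 1.01. Both ENO2 and HK2, each the minor form of its pair, took smaller shares in treated cells. ENO2 made up 1.75% ± 0.177 and 0.849% ± 0.217 of ENO1 plus ENO2, and HK2 1.04% ± 0.231 and 0.146% ± 0.0376 of HK1 plus HK2. SLC2A1 made up 95.3% ± 0.647 and 96.7% ± 0.198 of SLC2A1 plus SLC2A3. LDHA made up 59.8% ± 5.26 and 45.1% ± 8.87 of lactate dehydrogenase transcripts, and the groups overlapped (exact permutation p = 0.0571, adjusted p = 0.0786). The overlap came from dexamethasone replicate 5, at 57.2%, while the other treated libraries lay at 37.3% to 46.0%. With the GC trend removed, which could be done for 10 of the shares, the EPAS1 share was 58.5% ± 3.72 and 44.1% ± 2.54 (SD, n = 4 each), with no overlap. The deposited shares of PFKL, ALDOC and SLC16A3 overlapped too (exact permutation p of 0.114, 0.2 and 0.2).

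**Figure D3:**
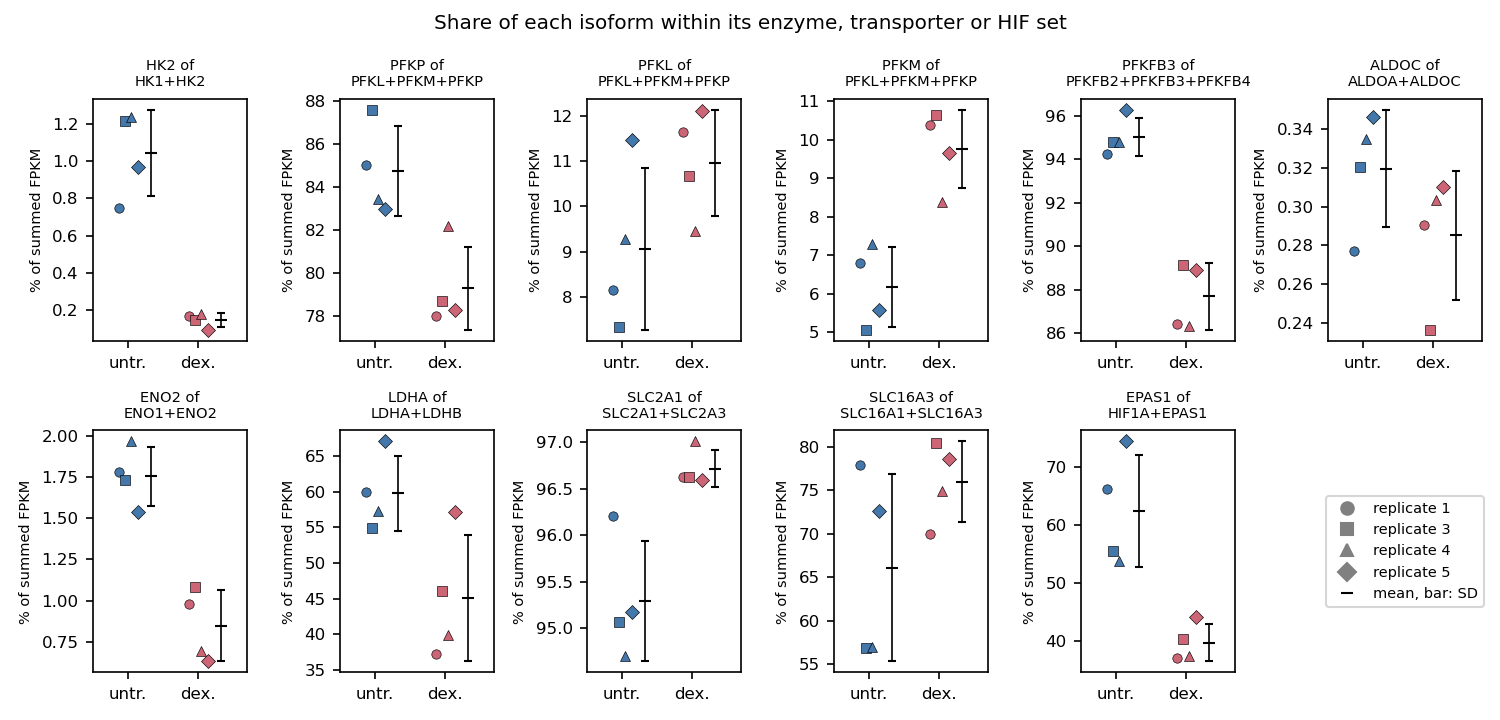
Percent of each isoform in the summed FPKM of its set, 1 point per library with mean and SD, each panel with its own axis that need not start at 0. The EPAS1 share lies at 53.8% to 74.4% in untreated and 37.2% to 44.2% in dexamethasone libraries, while the LDHA and SLC16A3 shares overlap.

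The 3 pentose phosphate genes tested here did not pass, where 26.8% of all genes did. With both libraries numbered 5 left out and the GC trend removed, all 3 passed. There PGD was at 0.40 (limma adjusted p = 0.00504), TALDO1 at 0.20 (limma adjusted p = 0.0225) and TKT at -0.40 (limma adjusted p = 0.0193). In that fit 42.5% of all genes passed. PGD, an NADPH-yielding dehydrogenase, was at 798 ± 98.1 FPKM in untreated wells and 928 ± 120 FPKM in treated wells (SD, n = 4 each), and TALDO1, transaldolase, at 237 ± 19.8 FPKM in untreated wells and 241 ± 26 FPKM in treated wells. TKT, the transketolase of the non-oxidative branch, was at 691, 657, 675 and 900 FPKM in untreated wells and 359, 476, 485 and 581 FPKM in treated wells. Its groups did not overlap, and the log2 fold change of -0.63 (SE 0.251) had a limma adjusted p of 0.0924. TKT passed without both libraries numbered 5, at -0.57 (limma adjusted p = 0.00896), and with the GC trend removed, at -0.41 (limma adjusted p = 0.0458). PCK2, the mitochondrial enzyme that makes phosphoenolpyruvate, was at 9.36 ± 1.22 FPKM in untreated wells and 7.94 ± 1.57 FPKM in treated wells (SD, n = 4 each) and did not pass (log2 fold change -0.22, limma adjusted p = 0.434), with 0.02 once the GC trend was removed.

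Of the HIF alpha subunits and prolyl hydroxylases, 4 were tested, 1 rose and none fell past the threshold by limma. That is 25% against 26.8% of all genes. HIF1A, the transcript of the alpha subunit of HIF-1, was at 37.8, 57.3, 59.3 and 17.4 FPKM in untreated wells and 99.1, 95.5, 106 and 73.5 FPKM in treated wells. All treated libraries lay above all untreated ones, and replicate 5 was the lowest of each group. The log2 fold change was 1.23 (adjusted p = 0.00891 by limma, SE 0.274). HIF1A has a transcript GC content of 38.9%, against a median of 49.2% over all genes tested. Its log2 fold change was 0.89 with the GC trend removed, 1.03 without both libraries numbered 5, and 0.75 with both done (limma adjusted p = 0.00258). EPAS1 was at 73.9, 71.6, 68.9 and 50.7 FPKM in untreated wells and 58.7, 65, 63.3 and 58.1 FPKM in treated wells. The groups overlapped, and the log2 fold change was -0.10 (adjusted p = 0.548 by limma, SE 0.119), or 0.06 with the GC trend removed.

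EGLN1 is the main oxygen sensor among the prolyl hydroxylases, and EGLN3 is itself a HIF target. EGLN1 was at 14, 16.8, 16.3 and 5.92 FPKM in untreated wells and 12.7, 10.9, 11.5 and 7.31 FPKM in treated wells. Replicate 5 was the lowest of each group, and the log2 fold change of -0.23 did not pass (limma adjusted p = 0.49). It was -0.34 without both libraries numbered 5 (limma adjusted p = 0.017) and -0.48 with the GC trend removed (limma adjusted p = 0.00572). EGLN3 was at 5.34 ± 0.967 FPKM in untreated wells and 5.98 ± 1.27 FPKM in treated wells (SD, n = 4 each, limma adjusted p = 0.498).

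Of the 12 other HIF targets, 4 rose, 1 fell and 7 did not pass, with a median log2 fold change of 0.322. The share that passed was 41.7%, against 26.8% of all genes. Without both libraries numbered 5, and likewise with the GC trend removed, 7 were higher and 1 was lower, while the share of all genes that were higher went from 12.6% to 22.6% and 18.7%. NDRG1, a stress-response gene known to be induced by hypoxia, changed most. It was at 19.6, 18.8, 17 and 18 FPKM in untreated wells and 92.2, 119, 91.6 and 92.7 FPKM in treated wells, a ratio of means of 5.38. The treated libraries other than replicate 3 lay close together, and the log2 fold change was 2.35 (adjusted p = 5.46e-06 by limma, SE 0.15). BNIP3L, a receptor for the autophagy of mitochondria, was at 9.01, 7.36, 11.5 and 4.69 FPKM in untreated wells and 22.7, 20.1, 22.3 and 15.4 FPKM in treated wells. The groups did not overlap, and the log2 fold change was 1.25 (adjusted p = 0.000855 by limma, SE 0.183). Its paralogue BNIP3 was at 15.5 ± 3.29 FPKM in untreated wells and 18.8 ± 1.59 FPKM in treated wells (SD, n = 4 each) and did not pass (log2 fold change 0.28, limma adjusted p = 0.11). BNIP3 passed without both libraries numbered 5, at 0.24 (limma adjusted p = 0.0472), and GENCODE v44 names 44 pseudogenes of it.

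P4HA1 and P4HA2 encode catalytic subunits of collagen prolyl hydroxylase. P4HA1 was at 6.78, 8.18, 8.69 and 3.46 FPKM in untreated wells and 12.3, 10, 10.9 and 8.15 FPKM in treated wells. Dexamethasone replicate 5 lay among the untreated libraries, and the log2 fold change was 0.59 (adjusted p = 0.039 by limma, SE 0.184). It was 0.29 with the GC trend removed (limma adjusted p = 0.0138). The call was lost in 6 of 19 alternatives, which were no filter on low values, no scaling between libraries, and the removal of untreated replicate 1 or dexamethasone replicate 1, 3 or 4. P4HA2 was at 12.6 ± 0.671 FPKM in untreated wells and 16.7 ± 2.11 FPKM in treated wells (SD, n = 4 each) and did not pass (limma adjusted p = 0.0867). Its groups did not overlap, and it passed without both libraries numbered 5, at 0.35 (limma adjusted p = 0.0421), and with the GC trend removed, at 0.40 (limma adjusted p = 0.0164).

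The membrane carbonic anhydrases CA9 and CA12, which handle acid at the cell surface, were called in opposite directions. CA9, a classical hypoxia marker, was low, at 0.159, 0.636, 0.639 and 0.7 FPKM in untreated wells and 1.28, 0.943, 0.951 and 1.08 FPKM in treated wells. Untreated replicate 1 lay far below the rest of its group, and the log2 fold change was 0.43 (adjusted p = 0.0483 by limma, SE 0.141). The call was lost in 10 of 18 alternatives, with limma adjusted p up to 0.124, among them the removal of any single library except untreated replicate 5. Without untreated replicate 1 it was 0.30, with a pseudocount of 0.1 it was 0.99, and with the GC trend removed 0.66. CA12 was at 95.3, 104, 107 and 59.8 FPKM in untreated wells and 59.1, 66.6, 62.4 and 51.7 FPKM in treated wells. Untreated replicate 5 lay among the treated libraries, and the log2 fold change was -0.58 (adjusted p = 0.0134 by limma, SE 0.14). The call was lost with no scaling between libraries (limma adjusted p = 0.0527).

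The remaining targets did not pass. VEGFA, the angiogenic factor, was at 5.62 ± 0.467 FPKM in untreated wells and 4.67 ± 0.953 FPKM in treated wells (SD, n = 4 each, limma adjusted p = 0.231). ADM, which encodes the vasodilator adrenomedullin, was at 19.7, 18.1, 18.4 and 17.7 FPKM in untreated wells and 21.4, 23.7, 22.7 and 22.8 FPKM in treated wells (limma adjusted p = 0.142). The ADM groups did not overlap, and ADM passed without both libraries numbered 5, at 0.31 (limma adjusted p = 0.022), and with the GC trend removed, at 0.50 (limma adjusted p = 0.00106). KDM3A, a histone demethylase, MXI1, a MYC antagonist, and ANKRD37 had log2 fold changes of 0.22, 0.59 and -0.23 (limma adjusted p of 0.381, 0.0604 and 0.15).

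HIF is known to bind DNA at the core ACGTG or GCGTG, and promoter windows are shown to set these letters beside the results. Windows of the 250 bases before a RefSeq start site were taken from RefSeq (GRCh38.p14) and found for 34 of the 44 genes. Both strands were searched, and CACGTG holds ACGTG on each strand. ACGTG was in 15 of the 34 windows (44.1%) and in 21.0% of 14628 windows of all genes. GCGTG was in 14 (41.2%) and in 41.0% of all windows, and either form in 24 (70.6%) and in 52.2%. Either form was in 5 of 6 windows of genes that rose, in 4 of 4 of genes that fell, and in 14 of 23 of genes that did not pass. No window was found for NDRG1 and BNIP3L, which had the largest rises, or for SLC2A3, which fell. The full palindromic glucocorticoid response element was in 0 of all 14628 windows, and AGAACA, 1 arm of it, was in 3 of the 34 windows (8.82%) and in 8.46% of all. A match describes letters and is not a bound site, and its absence says nothing of sequence outside the window. In 15 of the 34 windows more than 30 bases are annotated in GENCODE v44 as untranslated or coding sequence of some transcript, so such a window is not purely upstream. The windows shown are those of all 4 genes that passed and lie within that limit, and that of LDHA, which did not pass. SLC16A3 rose and holds ACGTG, HIF1A rose and CA12 fell and both hold GCGTG, and LDHB rose and holds neither form. In the LDHB window, 129 bases lie in annotated exons of LDHB, with none annotated as untranslated or coding sequence. These windows were chosen after the letters were seen. Each is read 5′ to 3′ along the gene, with the HIF core on either strand in capitals.
SLC16A3 (chr17:82228792-82229041, plus strand): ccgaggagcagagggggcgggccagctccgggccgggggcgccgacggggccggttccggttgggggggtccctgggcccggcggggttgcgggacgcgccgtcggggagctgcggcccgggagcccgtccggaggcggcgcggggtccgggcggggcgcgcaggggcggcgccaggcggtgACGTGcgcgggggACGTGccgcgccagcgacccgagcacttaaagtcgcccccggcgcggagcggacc
HIF1A (chr14:61695263-61695512, plus strand): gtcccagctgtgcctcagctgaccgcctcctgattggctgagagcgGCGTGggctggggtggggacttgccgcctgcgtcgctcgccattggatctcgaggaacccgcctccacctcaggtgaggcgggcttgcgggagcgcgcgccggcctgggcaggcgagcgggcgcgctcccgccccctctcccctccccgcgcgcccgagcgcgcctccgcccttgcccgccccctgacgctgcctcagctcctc
CA12 (chr15:63381847-63382096, minus strand): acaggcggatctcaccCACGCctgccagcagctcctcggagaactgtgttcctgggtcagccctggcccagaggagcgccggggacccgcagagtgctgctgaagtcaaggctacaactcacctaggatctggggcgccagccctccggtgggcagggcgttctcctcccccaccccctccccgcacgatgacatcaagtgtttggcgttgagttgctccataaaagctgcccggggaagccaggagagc
LDHB (chr12:21657843-21658092, minus strand): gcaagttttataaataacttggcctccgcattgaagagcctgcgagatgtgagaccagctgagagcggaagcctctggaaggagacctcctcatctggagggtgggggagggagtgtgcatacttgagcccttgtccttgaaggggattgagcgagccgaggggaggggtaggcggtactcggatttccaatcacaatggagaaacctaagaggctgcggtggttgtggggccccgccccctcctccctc
LDHA (chr11:18394313-18394562, plus strand): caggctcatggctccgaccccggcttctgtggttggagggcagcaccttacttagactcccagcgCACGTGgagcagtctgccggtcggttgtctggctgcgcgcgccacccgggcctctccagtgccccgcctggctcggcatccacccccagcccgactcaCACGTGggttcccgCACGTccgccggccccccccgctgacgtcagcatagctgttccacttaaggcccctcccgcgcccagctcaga
The core begins 68 and 55 bases before the start site in SLC16A3, 204 in HIF1A and 234 in CA12. LDHA holds ACGTG at 185, 87 and 73 bases.

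Other genes of these pathways were read from the same test. Of 19 tested genes in a further list of glycolysis and glucose handling, 3 rose and 3 fell, 31.6% against 26.8% of all genes. HKDC1, a further hexokinase, was at 26.5 ± 0.983 FPKM in untreated wells and 12.6 ± 0.676 FPKM in treated wells (SD, n = 4 each), with a log2 change of -1.03 (adjusted p = 0.000308 by limma, SE 0.127). Its untreated libraries lay at 25.6 to 27.5 FPKM, near those of HK1 at 22 to 28.6 FPKM, and its treated libraries at 11.6 to 13.3 FPKM, below those of HK1. SLC16A7, which encodes MCT2, was at 0.33 ± 0.207 FPKM in untreated wells and 1.29 ± 0.261 FPKM in treated wells, with a log2 fold change of 0.80 (limma adjusted p = 0.000927), or 0.40 with the GC trend removed (limma adjusted p = 0.0731). Of 10 further pentose phosphate genes tested, 1 rose and 3 fell, 40% against 26.8%. H6PD, which feeds the pathway in the endoplasmic reticulum, had a log2 fold change of 0.52 (limma adjusted p = 0.0177), and the call was lost without dexamethasone replicate 3, at 0.49 (limma adjusted p = 0.0615). RPIA, ribose phosphate isomerase, had -0.49 (limma adjusted p = 0.0111), and the call was lost with no scaling, at -0.48 (limma adjusted p = 0.0517).

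Of 14 tested genes of gluconeogenesis and pyruvate use, 2 rose and 12 did not pass, 14.3% against 26.8% of all genes. PDK4, a kinase that switches off pyruvate dehydrogenase, was at 4.49 ± 2 FPKM in untreated wells and 34.6 ± 9.66 FPKM in treated wells (SD, n = 4 each), with a log2 change of 2.75 (adjusted p = 7.9e-05 by limma, SE 0.269). Of 29 tested further genes of the HIF pathway and its targets, 11 rose and 4 fell, 51.7% against 26.8% of all genes, with a median log2 fold change of 0.37. ANGPTL4, an inhibitor of lipoprotein lipase, was at 4.67 ± 0.737 FPKM in untreated wells and 64.7 ± 10.2 FPKM in treated wells (SD, n = 4 each), with a log2 change of 3.53 (adjusted p = 9.01e-07 by limma, SE 0.168). LOXL2, a lysyl oxidase of the matrix, was at 66.7 ± 4.72 FPKM in untreated wells and 27.9 ± 1.62 FPKM in treated wells, a log2 fold change of -1.23 (adjusted p = 0.000157 by limma, SE 0.137). Both PDK4 and ANGPTL4 are also known glucocorticoid-induced genes.

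Differences between libraries of 1 group ran across whole sets of these genes. The median deviation of the 16 tested glycolytic enzymes from their mean over 8 libraries was 0.66 on the log2 scale in untreated replicate 5 and 0.31 in dexamethasone replicate 5, and -0.27 to -0.04 in the other 6. For the 3 pentose phosphate genes it was 0.44 and 0.35, against -0.21 to -0.06 in the others. For the 12 HIF targets, of which 7 did not pass, it was -0.17 to -0.08 in untreated and 0.11 to 0.19 in dexamethasone libraries, and for the 3 PFKFB genes 0.06 to 0.30 and -0.27 to -0.13. These medians are centred on all 8 libraries and describe no test. Within its group, untreated replicate 5 held the lowest value for 18 of the 43 genes and the highest for 17, dexamethasone replicate 5 for 13 and 18, and dexamethasone replicate 1 for 19 and 8. The FPKM of the 17 glycolytic enzymes summed to 2.35% to 2.98% of all FPKM in untreated and 2.06% to 2.73% in dexamethasone libraries, with replicate 5 highest in each group. The median transcript GC content was 48.5% for the genes that rose and 55.8% for those that fell.

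**Figure D4:**
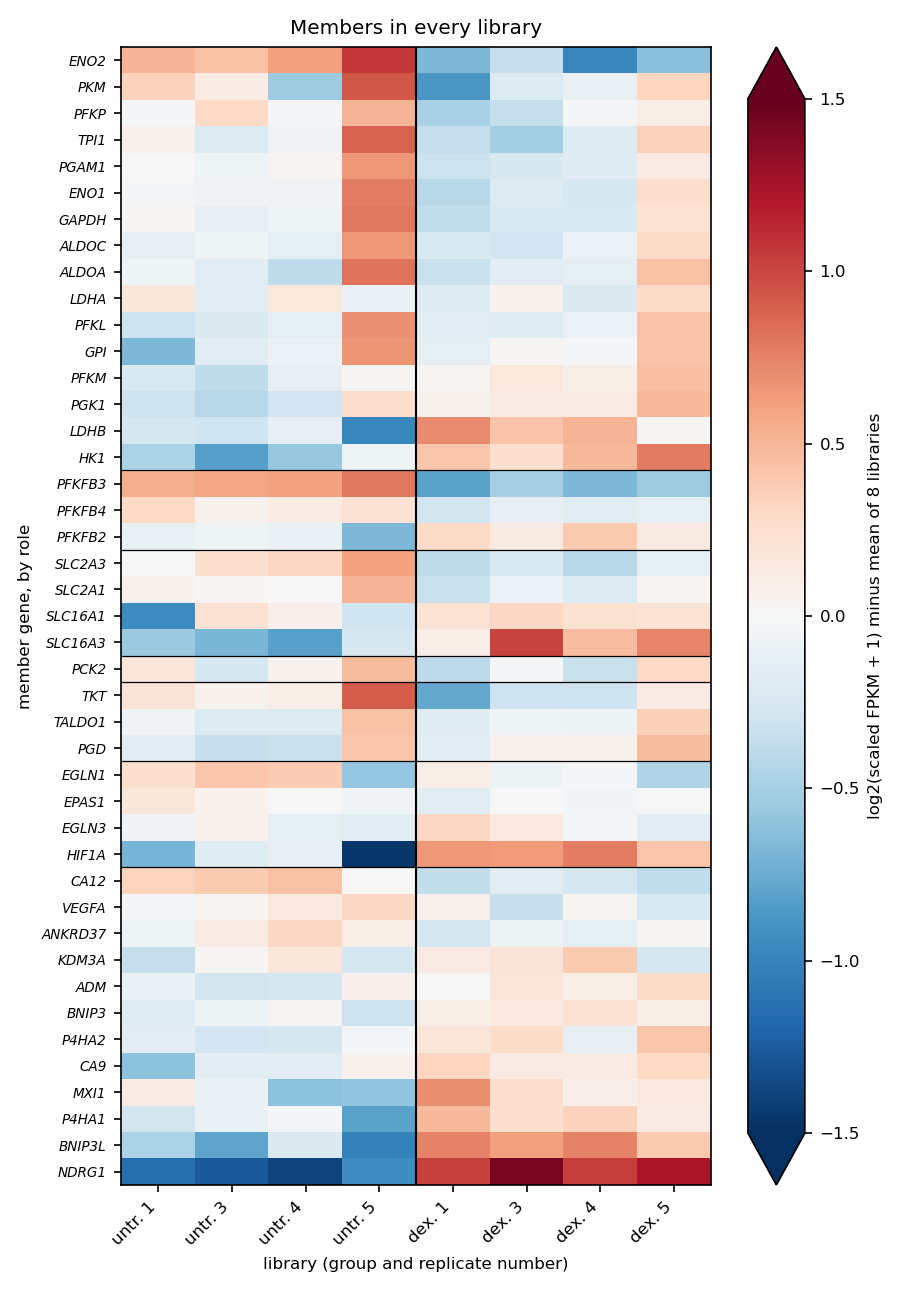
Deviation of log2(scaled FPKM + 1) from the mean of 8 libraries, as colour limited at 1.5 in each direction, for the 43 tested genes by role in each of the 8 libraries. Untreated replicate 5 lies above the mean in most glycolytic enzymes, with a median deviation of 0.66.

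Gene-level values carry limits of annotation. Of the 44 genes, 23 overlap an annotated gene on the same strand and 26 on the opposite strand, and whether counting used the strand is not stated. On the same strand, 9 of the 44 overlap a protein-coding gene, among them ENO2, LDHB and PFKFB4, which passed. GENCODE v44 names pseudogenes for 18 of the 44.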

How the data were processed

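Total RNA of 8 wells was sequenced after ribosomal RNA depletion, per the labels' protocols. Reads were trimmed with Cutadapt 3.4, aligned to GRCh38 with STAR 2.7.9a, counted with featureCounts (Subread 2.0.3) and tested with DESeq2 1.32.0, per the submitters' processing notes. The deposited values are called counts by the labels but are not whole numbers, and were read as FPKM made by the authors, an inference from the values. The step that made them, the annotation release and the strand setting are not given in the sources used here. Fragment numbers were inferred from the spacing of low FPKM values of genes with 1 GENCODE v44 transcript. At the best estimate 40.6% to 46.4% of these values lay within 0.1 of a whole number, so reads could not be recovered and count models were not used.

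FPKM are printed as deposited. For the tests, each library was divided by a factor from the trimmed mean of M values (trim 0.3 of M and 0.05 of A, factors 0.821 to 1.09). Then log2(FPKM + 1) of genes with at least 0.5 FPKM in 4 libraries (3 where a library was left out) was fitted with limma 3.58.1 in R 4.3.3, with group as the only term, eBayes with trend and robust, and Benjamini-Hochberg adjustment over all genes. The GC trend was removed by lowess (span 0.3) on transcript GC content. Shares were compared by two-sided exact permutation. One RefSeq promoter window per gene was used, the nearest within 500 bases of the MANE Select start.

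The genes, lists and alternatives were chosen with earlier results of these data known, and the fit without both libraries numbered 5 with the GC trend removed and the shares with the GC trend removed were added after seeing the data. By rule, values in every library are printed for genes called with no overlap and for HIF1A, EPAS1, SLC2A1, LDHA, GAPDH and HK2, and each further list is represented by the called gene with the smallest p in each direction. LDHB, P4HA1, CA12, PFKFB2, SLC16A1, TKT, EGLN1 and ADM are printed in every library too, chosen after their values were seen. ENO3 of the further lists is given outside this rule, also after its values were seen.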

Additional observations from a re-analysis of the deposited data

Results flagged for a closer look

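In 12 of 110 groups of 4 libraries, the highest or lowest library lay further from the rest than Dixon's 95% critical value for 4 values allows, where chance gives about 1 in 20 groups, or 5.5. Of these, 5 were in untreated replicate 5. There ALDOC was at 2.24 FPKM, GAPDH at 3530 FPKM, ENO1 at 1680 FPKM and TKT at 900 FPKM, each the highest of its group, and PFKFB2 at 1.79 FPKM, the lowest. PGK1 was highest in dexamethasone replicate 5, at 190 FPKM. Untreated replicate 1 was lowest for SLC2A3, at 2.33 FPKM, and for CA9, at 0.159 FPKM. NDRG1 was highest in dexamethasone replicate 3, at 119 FPKM. In dexamethasone replicate 4, P4HA2 was lowest at 13.5 FPKM, the share of PFKP in phosphofructokinase transcripts was highest at 82.2%, and the share of SLC2A1 in the 2 glucose carriers was highest at 97%.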

How the results depend on the processing

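Of all genes tested, 3259 passed, and 5739 did with the replicate block, 5319 with the block and the GC trend removed, 5533 without both libraries numbered 5, 5204 without both and the GC trend removed, and 2285 to 3876 with 1 library left out. Of the 43 genes, 13 passed, and in the same order 25, 23, 24, 23 and 8 to 18 did. Those higher numbered 8, and 14 with the block, 13 with the GC trend removed, 17 with the block and the GC trend removed, 14 without both libraries numbered 5, 17 without both and the GC trend removed, and 5 to 12 with 1 library left out. Those lower numbered 5, and 11 with the block, 10 without both libraries numbered 5, and 3 to 6 with 1 library left out. The cause was not tested. With the block 47.2% of all genes passed. The count of further pathway genes (27) stayed within 1.5 times in the alternatives run for it. Of the 10 shares that could be computed with the GC trend removed, all but that of HK2, 6 had no overlap, as many as before. As log2 ratios, 7 of the 11 had no overlap, and leaving out libraries cannot lower such a count. The block counts as a pairing only if same-numbered libraries deviate together. Their deviations correlated at 0.294, 0.0671, 0.315 and 0.713 for numbers 1, 3, 4 and 5. Dexamethasone replicates 3, 4 and 5 correlated best with their own number. Dexamethasone replicate 1 did so with untreated replicate 3, at 0.435, and untreated replicate 4 correlated best with dexamethasone replicate 1, at 0.424. With this mixed picture the numbers were not taken as pairs. For the shares, 4 pairs cannot give a p below 0.125, and 9 of 11 shares moved one way in all 4 pairs.

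No gene that passed changed direction. Of those that did not pass, PFKL (-0.0037) was at 0.00121 with no scaling, 0.015 with median of ratios scaling, 0.278 with the GC trend removed, with or without the block, 0.0859 without both libraries numbered 5, and 0.311 without both and the GC trend removed. With the GC trend removed, with or without the block, ALDOA was at 0.136, ALDOC at 0.0305, PCK2 at 0.0153 and EPAS1 at 0.0609. Without both libraries numbered 5 and the GC trend, ALDOA was at 0.181, ALDOC at 0.0597 and VEGFA at 0.000979. With 1 library left out, values ranged over both signs, in GPI from -0.0788 to 0.359, in PFKL from -0.147 to 0.206, in ALDOA from -0.263 to 0.138, in ALDOC from -0.284 to 0.0175, in LDHA from -0.137 to 0.0338 and in TALDO1 from -0.102 to 0.146. Depth and the number of libraries limit what can be seen in low genes such as HK2 and CA9.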
